A study of Mus musculus with 2 samples.

Results

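The genes described here are 33 named genes of glycolysis, lactate handling and ketone body use, out of 55536 annotated genes in the gene tables. They were taken from a list of symbols, each as 1 gene identifier. Aldoa alone shared its symbol with another annotated gene (ENSMUSG00000114515.2), listed at 3.87 TPM in replicate 2 and at 3.57 TPM in replicate 1, which was not counted as a member. TPM is a level scaled for transcript length and library size, so that genes can be set beside each other. Each library was quantified in 2 ways by the authors: a first quantification with gene and transcript tables, which gives the values below unless another source is named, and a second with a transcript table, summed here per gene.

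RNA was measured by total RNA sequencing of the left cerebral cortex of female B6CASTF1/J mice aged 4 days. B6CASTF1/J is the first-generation cross of the C57BL/6J and CAST/EiJ strains. The 2 libraries form 1 group with no treatment and no contrast, and 300 ng of RNA and ERCC spike-in RNAs went into each. Their labels name separate tissue samples, biological replicates 1 and 2, but 1 donor entry for both, so the spread between them may be partly technical. Each tissue sample is bulk cortex and holds several cell types. Marker genes of neurons summed to 2887 TPM in replicate 2 and 2903 TPM in replicate 1, and those of astrocytes and radial glia to 923 and 962 TPM. All 7 neuronal and all 8 glial markers were detected.

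Glycolysis splits glucose into pyruvate in the cytosol and yields ATP and NADH. Lactate dehydrogenase converts pyruvate and lactate into each other, monocarboxylate transporters move lactate, pyruvate and ketone bodies across membranes, and the pyruvate dehydrogenase complex commits pyruvate to oxidation in mitochondria. Suckling rodents drink fat-rich milk, and their brains take up ketone bodies made by the liver as a fuel beside glucose. Several steps are served by isozymes from separate genes or, for pyruvate kinase, by alternative exons of 1 gene.

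Pyruvate kinase makes the pyruvate and the ATP of the last glycolytic step. Its gene Pkm (ENSMUSG00000032294.17, mm10 chr9:59656368-59679375, plus strand) holds a pair of mutually exclusive exons that separate the M2 form, common in developing and proliferating tissue, from the M1 form, common in adult brain and muscle. Both exons are shown because the M2 and M1 shares given next are defined by them. They lie at chr9:59675568-59675734 (M2) and chr9:59675029-59675195 (M1), each 167 bases long and coding throughout, read 5′ to 3′ from the GENCODE M21 transcripts. Capitals mark the 64 positions at which the exons differ, which leaves 61.7% identity.
M2 exon, Pkm-201: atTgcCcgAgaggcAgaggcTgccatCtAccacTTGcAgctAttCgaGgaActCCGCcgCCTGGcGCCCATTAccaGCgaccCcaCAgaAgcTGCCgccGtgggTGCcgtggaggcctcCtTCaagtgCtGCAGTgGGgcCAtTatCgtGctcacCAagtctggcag
M1 exon, Pkm-202: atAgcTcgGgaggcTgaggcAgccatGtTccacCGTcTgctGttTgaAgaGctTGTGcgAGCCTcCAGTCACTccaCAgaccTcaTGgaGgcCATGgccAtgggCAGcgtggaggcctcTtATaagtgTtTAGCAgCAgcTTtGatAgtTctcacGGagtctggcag

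Transcripts with either exon each held a large part of Pkm in the cortex at 4 days. Of all Pkm TPM in the first of the deposited quantifications, Pkm-201, the transcript with the M2 exon, took 48.0% in replicate 2 and 48.8% in replicate 1 (48.4% ± 0.578, SD, n = 2). The 2 transcripts with the M1 exon, Pkm-202 and the retained-intron transcript Pkm-203, took 45.8% in replicate 2 and 46.5% in replicate 1 (46.1% ± 0.471). The M2 share was the higher one in both libraries, by a margin of a few percentage points, and the 8 transcripts with neither exon took 5.48% ± 1.05 of the TPM. Of the TPM that carried one of the exons, 51.2% ± 0.0430 carried M2. The second deposited quantification put the M2 share at 50.4% ± 2.26 and the M1 share at 39.9% ± 0.525 of Pkm TPM. As shares of the expected read counts of the first quantification the values were 54.5% ± 0.343 for M2 and 42.2% ± 0.0263 for M1. The estimated counts of the second gave the widest gap, 59.7% ± 0.921 for M2 and 36.5% ± 0.245 for M1. M2 was above M1 in each library under each of the 4 measures, and its margin depended on the measure. Pkm-201 differs from Pkm-202 also in its first exon, 282 against 77 bases, and its last exon, 648 against 462 bases, so the assignment does not rest on the M2 and M1 exons alone; reads that span their junctions were not used here.

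**Figure D1:**
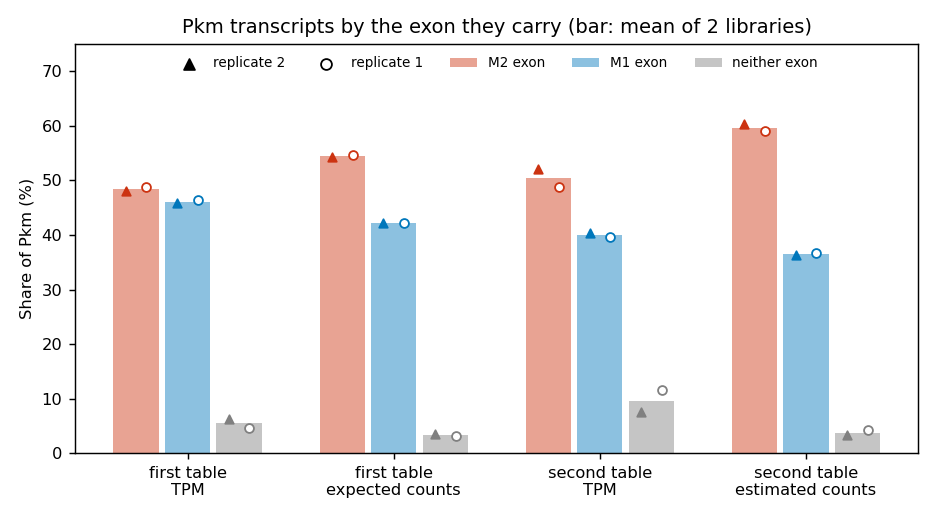
Share of Pkm (vertical axis, percent) on transcripts with the M2 exon, the M1 exon or neither, under 4 measures (horizontal axis). Bars are means of the 2 libraries, triangles replicate 2 and circles replicate 1; the M2 bar is the tallest under each measure, from 48.4% to 59.7%.

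All 33 members were detected, which here means that neither library put them below 1 TPM, against 27.6% of all annotated genes and 59.6% of protein-coding genes. The median member stood at 84.2 TPM (88.0 in replicate 2 and 80.5 in replicate 1), beside 17.2 TPM for the median of 13137 detected protein-coding genes and 14.5 TPM for the median of all 15304 detected genes. The level of 26 members was above the protein-coding median, and 17 members lay in the top 10% of detected protein-coding genes. Together the members took 0.473% of the gene counts in replicate 2 and 0.468% in replicate 1. Their counts ran from 48 to 20779, and the SD between libraries was 2.37% of the mean for the median member. Levels differed by role, with medians of 151 TPM for the enzymes from triose phosphate to pyruvate, 146 TPM for lactate dehydrogenase, 135 TPM for ketone body enzymes and 105 TPM for the enzymes from hexokinase to aldolase. Lower medians were found for pyruvate dehydrogenase (66.4 TPM), the 3 monocarboxylate transporters (22.3 TPM) and the kinases that switch pyruvate dehydrogenase off (9.78 TPM).

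**Figure D2:**
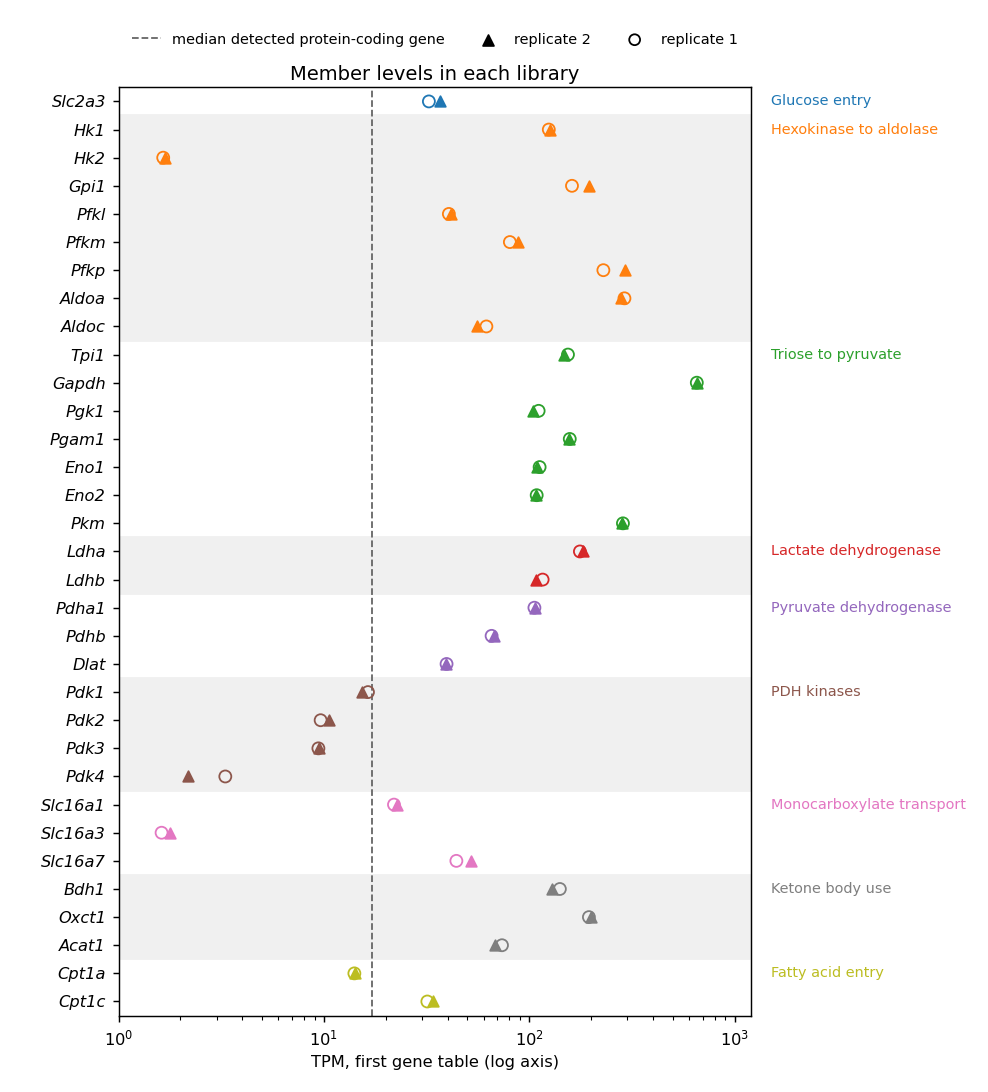
TPM of each member in the first quantification (horizontal log axis), grouped and coloured by role, with replicate 2 as triangles and replicate 1 as circles; the dashed line is the median detected protein-coding gene at 17.2 TPM. The members span from Hk2 and Slc16a3, both under 2 TPM, to Gapdh at 654 TPM, and the symbols of the 2 libraries overlap for most.

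Glucose enters neurons mainly through GLUT3, the product of Slc2a3, and crosses the blood-brain barrier and enters glia through GLUT1, the product of Slc2a1. Slc2a3 had 36.7 TPM in replicate 2 and 32.4 TPM in replicate 1, and Slc2a1, which is no member, 16.9 and 16.1 TPM. Slc2a3 made up 55.4% ± 2.17 of the summed TPM of 5 glucose transporter genes. The log2 ratio of Slc2a3 to Slc2a1 was 1.02 ± 0.07. A pair was called apart where each library put this ratio, taken on TPM + 1, at or beyond 1 in the same direction; with 2 libraries an exact sign-flip test cannot give a p below 0.5, so no p is given for pairs. Slc2a3 and Slc2a1 were not called apart, since the ratio was 1.07 in replicate 2 and 0.97 in replicate 1. In the first quantification they were apart with a pseudocount of 0.1 (1.06 ± 0.07) and on protein-coding transcripts alone (1.43 ± 0.22). They were not apart in the second quantification over all transcripts (0.73 ± 0.12). On coding transcripts of the second the ratio was 1.19 in replicate 2 and 0.84 in replicate 1, also not apart.

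Hexokinase traps glucose as glucose-6-phosphate. Hk1, the hexokinase usual in brain, stood at 126 TPM in replicate 2 and at 124 TPM in replicate 1, and Hk2, the inducible form of muscle and many tumours, at 1.69 and 1.65 TPM. This was the widest split of any pair, a log2 ratio of 5.56 ± 0.01, and Hk1 made up 96.7% ± 0.555 of the TPM of 5 hexokinase genes. Gpi1, which turns glucose-6-phosphate into fructose-6-phosphate, had 196 TPM in replicate 2 and 161 TPM in replicate 1, so that the libraries were further apart than for Hk1.

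Phosphofructokinase takes the committed step of glycolysis, and its subunits come from 3 genes named for platelet (Pfkp), muscle (Pfkm) and liver (Pfkl). Pfkp had 293 TPM in replicate 2 and 229.6 TPM in replicate 1. Pfkm had 88.0 and 80.5 TPM, and Pfkl 41.5 and 40.6 TPM. Over all transcripts Pfkp therefore led in both libraries, with 67.4% ± 2.75 of the summed level and log2 ratios of 1.61 ± 0.16 over Pfkm and 2.63 ± 0.23 over Pfkl. The order changed when the transcripts annotated as protein-coding were summed alone, a choice made after seeing the data. On that scale Pfkp had 52.0 TPM in replicate 2 and 50.03 TPM in replicate 1, Pfkm 88.0 and 80.5 TPM (its 5 transcripts are all annotated as coding) and Pfkl 31.2 and 31.0 TPM. Pfkm then made up 50.6% ± 1.13 of the coding level and Pfkp 30.7% ± 0.450, and the log2 ratio of Pfkp to Pfkm was -0.71 ± 0.05. That of Pfkp to Pfkl was 0.69 ± 0.03, so this pair was no longer apart there, though it was on coding transcripts of the second quantification (1.37 ± 0.13). In the second quantification the ratio of Pfkp to Pfkm was 1.37 ± 0.16 over all transcripts and -0.34 ± 0.03 over coding transcripts, so the direction turned there too, and neither coding value was large enough to call Pfkp and Pfkm apart.

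The level of Pfkp (mm10 chr13:6579768-6648777, minus strand) was spread over 13 annotated transcripts. Coding transcripts took 19.8% ± 2.89 of its TPM, the lowest share among the members, and transcripts annotated as retaining an intron took 70.8%. The transcript with the highest level, Pfkp-212, is a retained-intron transcript of 16 exons and 8681 bases, at 31.5% ± 0.983 of the gene's TPM in the first quantification and 27.5% ± 2.35 in the second. Pfkp-201, coding, with 22 exons and 2679 bases, took 16.2% ± 2.63 in the first and 14.8% ± 0.622 in the second. For Gpi1 the coding transcripts took 34.9% ± 7.89 and for Gapdh 31.7% ± 0.631. These 3 of the 33 members had under 50% of their TPM on coding transcripts, against 10.9% of detected protein-coding genes. The median share was 91.4% for members and 88.1% for detected protein-coding genes. In the second quantification Gpi1 (25.7% ± 5.33), Pfkp (30.6% ± 2.64) and Dlat (35.3% ± 2.74) were under 50%, and Gapdh stood at 98.9% ± 0.394.

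**Figure D3:**
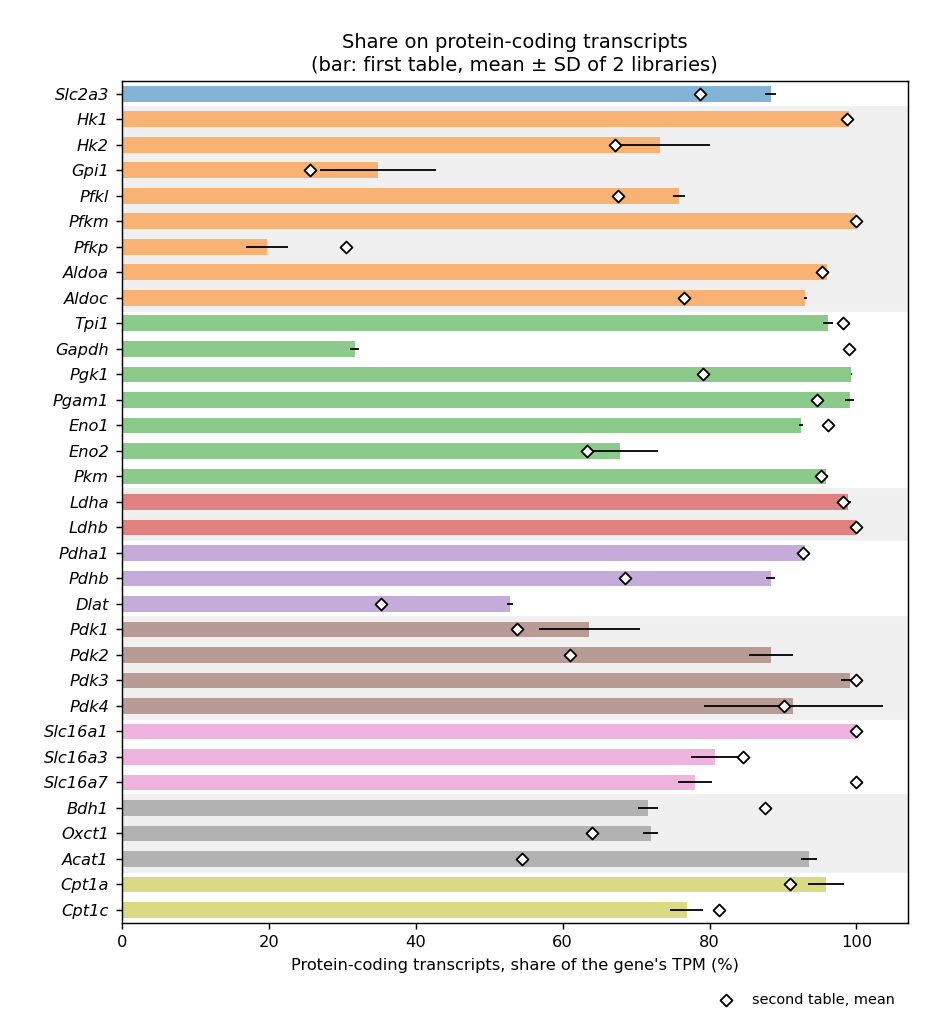
Share of each member's TPM on transcripts annotated as protein-coding (horizontal axis, percent). Bars with lines are the mean ± SD of the 2 libraries in the first quantification and diamonds the mean in the second; Pfkp, Gapdh and Gpi1 have the shortest bars, and the Gapdh diamond lies at 98.9%.

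Aldolase cuts fructose-1,6-bisphosphate into trioses. Aldoa, the form found in most tissues, had 281 TPM in replicate 2 and 291 TPM in replicate 1, and Aldoc, a brain form known from astrocytes and Purkinje cells, 55.9 and 61.8 TPM. Aldoa was the higher gene in both libraries, by a log2 ratio of 2.26 ± 0.07.

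Tpi1, which interconverts the trioses, had 147 TPM in replicate 2 and 154 TPM in replicate 1. Pgk1, which makes the first ATP of the pathway, had 105 and 111 TPM, and Pgam1, the next enzyme, 156 and 157 TPM. These single-gene steps lay within a narrow band in both libraries. The later-acting enolases had close levels: Eno1, the form of most tissues, had 109 TPM in replicate 2 and 112 TPM in replicate 1, and Eno2, the neuronal form, 108 and 109 TPM. Their log2 ratio was 0.03 ± 0.02, the smallest of the 22 pairs, and 0.48 ± 0.09 on coding transcripts alone, where Eno2 kept 67.8% ± 5.16 of its TPM. In the second quantification the ratio was 0.21 ± 0.01 over all transcripts and 0.81 ± 0.06 on coding transcripts.

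The Eno1 value depends on how reads were divided between near-identical sequences. Eno1b, annotated as a separate coding gene with 99.5% identity to the leading Eno1 transcript over 1736 aligned bases, was given 103 TPM in replicate 2 and 104 TPM in replicate 1. A processed pseudogene, Gm4735, with 99.6% identity over 1302 bases, was given 53.6 and 56.9 TPM. Over all transcripts of the first quantification, Eno1, Eno2 and Eno1b each took close to the same part of enolase TPM, at 33.9% ± 0.301, 33.1% ± 0.121 and 31.7% ± 0.199. Their parts were 42.1%, 36.4% and 20.3% in the second quantification. On coding transcripts they were 36.2%, 25.9% and 36.6% in the first and 47.6%, 27.1% and 23.9% in the second. The level of Eno1 is uncertain by the level given to its copies. Of the 33 members, 12 had such near copies (at least 90% identity over at least 300 bases on the same strand) and 21 had none. Copies at 8.82 TPM or more in replicate 2 were also present for Gpi1, Pgk1 and Pgam1. For 22 members the deposited posterior SD of the gene count, which grows with reads shared between genes, was 0 in both libraries. Gm5537, a processed pseudogene identical to Pgk1 over 1252 aligned bases, was given 10.7 TPM in replicate 2 and 13.3 TPM in replicate 1.

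Gapdh oxidises glyceraldehyde-3-phosphate and is often used as a reference gene. It was the highest member, with 653 TPM in replicate 2 and 654 TPM in replicate 1 by the first quantification, from 7832 and 8265 counts, and its SD of 1.22 TPM was 0.187% of the mean, the smallest of any member. The second quantification of the same libraries gave 2187 TPM in replicate 2 and 2204 TPM in replicate 1, which is 3.36 times the first. In TPM the libraries therefore matched each other closely within each quantification, while the quantifications were far apart. By scaled counts Gapdh was lower in replicate 2, by a log2 ratio of -0.08 in the first quantification and -0.18 in the second. Values of the second quantification were higher for the median detected gene too, by a ratio of 1.502, and by 1.66 for the median member; relative to the ratio of the median gene Gapdh was 2.24 times higher.

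The transcripts behind these Gapdh values were not the same ones. The first quantification put 67.0% ± 0.410 of Gapdh TPM on Gapdh-208, a non-coding processed transcript of 483 bases, at 439 TPM in replicate 2 and at 436 TPM in replicate 1. The second put Gapdh-208 at 0.368 TPM in replicate 2 and at 0 in replicate 1. It placed 802 and 706 TPM on Gapdh-207, 665 and 751 TPM on Gapdh-209 and 548 and 637 TPM on Gapdh-203, coding transcripts of 471, 482 and 1420 bases, each of which had at most 7.57 TPM in the first. Gapdh-201, a coding transcript of 1272 bases, had 196 TPM in replicate 2 and 199 TPM in replicate 1 in the first quantification and 0 in the second. Gapdh also had 157 near-copy genes, 152 of them pseudogenes. All 157 together took 67.5 TPM in replicate 2 and 67.3 TPM in replicate 1 in the first quantification. The highest was Peli2, a coding gene with 90.8% identity over 1075 aligned bases, at 12.7 and 15.4 TPM, so the sum is not of pseudogenes alone. Among the pseudogenes, Gm7336 had 4.90 and 4.53 TPM in the first quantification but 375 and 400 TPM in the second. In counts, the 157 copies held 1918 in replicate 2 and 1964 in replicate 1 in the first, and 6760 and 7141 in the second. Gapdh-203 alone was given 8871.7 and 10510.5 counts in the second, more than the whole gene in the first. The quantifications thus differed in the counts given to Gapdh and its copies, besides their split over transcripts.

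The median detected gene had a ratio of 1.502 between quantifications, so a cut of 1.5 lies at that median. At 1.5 times, 27 of the 33 members were apart between quantifications, against 55% of detected genes. At least 2 times apart were 4 members, all higher in the second, against 13.5% of detected genes. Beside Gapdh these were Ldhb (ratio 2.46), Acat1 (2.23) and Dlat (2.18). After division by the median ratio of all detected genes only Gapdh was left, against 6.05% of detected genes. The transcript with the highest level was the same in both quantifications for 25 of the 32 members with several transcripts, against 75.4% of detected genes with several transcripts. Those that differed were Hk1, Gpi1, Pfkm, Gapdh, Ldha, Slc16a7 and Bdh1. For Hk1 the leading transcript was one of 4278 bases (64.0% ± 3.05 of TPM) in the first and one of 2916 bases (35.5% ± 0.264) in the second. All 32 members kept 1 leading transcript across the libraries in the first quantification, and 28 did in the second.

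Lactate dehydrogenase is a tetramer of A subunits from Ldha, linked to lactate production, and B subunits from Ldhb, linked to lactate use. Ldha had 182 TPM in replicate 2 and 176 TPM in replicate 1, and Ldhb 108 and 116 TPM. In the first quantification Ldha was higher in both libraries and made up 61.5% ± 1.65 of the summed level, with a log2 ratio of Ldha to Ldhb of 0.67 ± 0.10. In the second quantification Ldha had 271 and 259 TPM and Ldhb 265 and 287 TPM, a log2 ratio of -0.06 ± 0.13 that was above 0 in replicate 2 (0.03) and below 0 in replicate 1 (-0.15). Neither quantification placed the subunit genes apart by the threshold, and which one led depended on the quantification. The second quantification split Ldhb over Ldhb-201 (89.4 TPM in replicate 2 and 105 TPM in replicate 1), Ldhb-202 (93.1 and 86.4 TPM) and Ldhb-203 (79.4 and 93.9 TPM), whereas the first put 81.1% ± 5.10 on Ldhb-201. Ldhb-202 and Ldhb-203 are shorter, at 437 and 867 bases against 1304 bases for Ldhb-201.

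The pyruvate dehydrogenase complex turns pyruvate into acetyl-CoA. Its E1 subunits are encoded by Pdha1, at 106 TPM in both libraries, and Pdhb, at 67.3 TPM in replicate 2 and at 65.5 TPM in replicate 1. Its E2 subunit gene Dlat had 39.4 and 39.6 TPM. Pdha1 was higher than Pdhb in both libraries, with a log2 ratio of 0.67 ± 0.02, and this pair was not called apart. Of the TPM of Dlat, 52.8% ± 0.374 lay on its 1 coding transcript, and 35.3% ± 2.74 in the second quantification.

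The kinases that phosphorylate and inactivate the complex were all below the median detected protein-coding gene. Pdk1 had 15.3 TPM in replicate 2 and 16.4 TPM in replicate 1, Pdk2 10.6 and 9.64 TPM, and Pdk3 9.45 and 9.40 TPM. Pdk4, the kinase that rises with fasting and fatty acid use in muscle and liver, had the lowest level, at 2.19 TPM in replicate 2 and at 3.31 TPM in replicate 1. The log2 ratios over Pdk4 were 2.18 ± 0.24 for Pdk1, 1.58 ± 0.40 for Pdk2 and 1.49 ± 0.31 for Pdk3, and these pairs were apart. Pdk1, Pdk2 and Pdk3 were not apart from each other. Pdk1 led over all transcripts with 41.5% ± 1.08 of PDH kinase TPM, but 63.6% ± 6.83 of its own TPM was on coding transcripts, and on those alone Pdk1, Pdk2 and Pdk3 had 32.6% ± 1.49, 29.0% ± 0.597 and 30.3% ± 0.684.

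Lactate and ketone bodies cross membranes through the monocarboxylate transporters MCT1 (Slc16a1, found on endothelium and glia), MCT2 (Slc16a7, a high-affinity neuronal form) and MCT4 (Slc16a3, a form of glycolytic cells that export lactate). Slc16a7 had 52.0 TPM in replicate 2 and 44.2 TPM in replicate 1, Slc16a1 22.6 and 21.9 TPM, and Slc16a3 1.78 and 1.62 TPM. The order MCT2, MCT1, MCT4 was the same in both libraries. Slc16a7 and Slc16a1 were each apart from Slc16a3, by log2 ratios of 4.18 ± 0.10 and 3.11 ± 0.03. The ratio of Slc16a1 to Slc16a7 was -1.17 in replicate 2 and -0.98 in replicate 1, and in the second quantification -1.44 and -1.31. This pair was therefore apart in the second quantification but not in the first, where replicate 1 fell short. On coding transcripts alone the ratio was -0.72 ± 0.18 in the first, not apart, and -1.37 ± 0.09 in the second, apart. The level of Slc16a3 rests on 52 counts in replicate 2 and 48 counts in replicate 1, the lowest counts of any member.

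Ketone bodies are oxidised in 3 steps, and all 3 genes were expressed well above the median detected gene. Bdh1, which oxidises 3-hydroxybutyrate, had 129 TPM in replicate 2 and 141 TPM in replicate 1. Oxct1, the rate-limiting transferase that activates acetoacetate and is absent from liver, had 200.9 and 195 TPM. Acat1, the mitochondrial thiolase that releases acetyl-CoA, had 68.1 and 73.6 TPM. Oxct1 was thus the highest of the 3 in both libraries, and Acat1 the lowest. Acat1 was apart from Oxct1, with a log2 ratio of -1.47 ± 0.11, and was -1.06 ± 0.17 in the second quantification, where 1 library fell short of the threshold. A non-coding Acat1 transcript of 500 bases had 62.4 TPM in replicate 2 and 79.8 TPM in replicate 1 in the second quantification, and 1.24 and 3.94 TPM in the first. On coding transcripts alone the log2 ratio was -1.09 ± 0.11 in the first and -1.29 ± 0.11 in the second, and Acat1 was apart from Oxct1 in both.

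Carnitine palmitoyltransferase 1 admits long-chain fatty acids to mitochondria. Cpt1a, the liver form, had 14.2 TPM in replicate 2 and 14.1 TPM in replicate 1, and Cpt1c, a neuronal form of the endoplasmic reticulum with little such activity, 34.2 and 31.9 TPM. Cpt1c was the higher gene in both libraries and the log2 ratio of Cpt1a to Cpt1c was -1.17 ± 0.06. It did not reach a size of 1 in the second quantification (-0.89 ± 0.01) or on coding transcripts alone (-0.86 ± 0.02). Over all steps, 11 of the 22 pairs were apart in the first quantification and 11 in the second, with 9 in both. On coding transcripts of the first quantification 10 were apart, 8 of which were apart over all transcripts too, and 7 pairs were apart under all 4 of these measures.

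**Figure D4:**
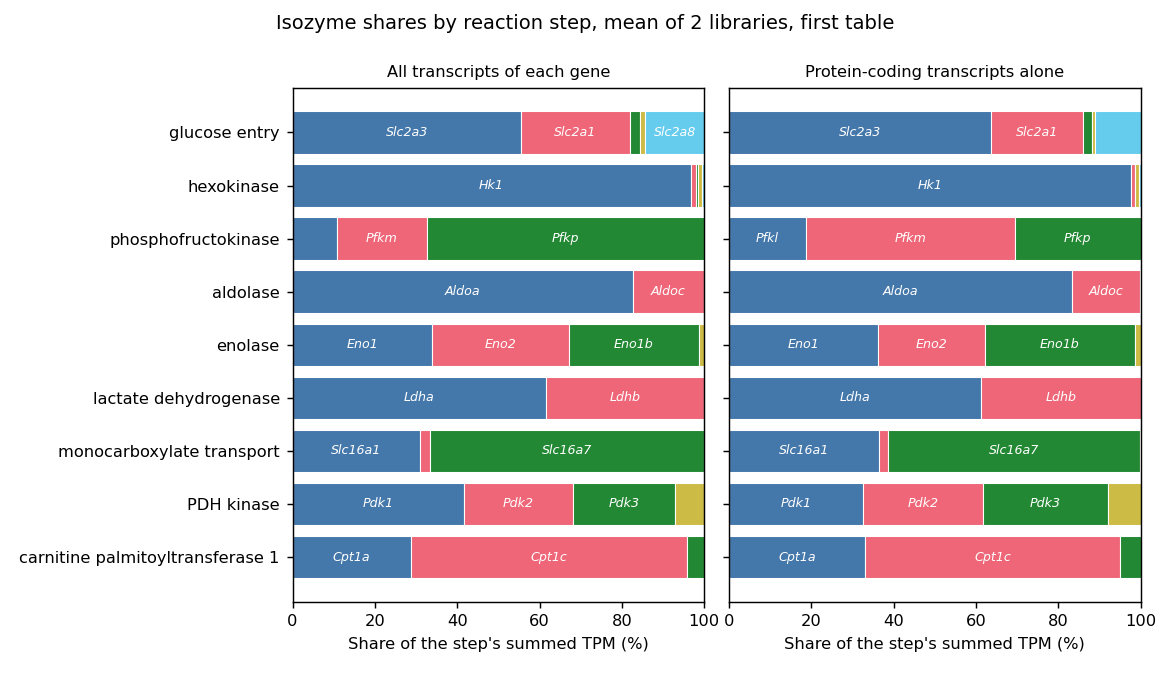
Share of each isozyme gene in the summed TPM of its reaction step (horizontal axis, percent), as the mean of the 2 libraries in the first quantification, over all transcripts (left) and over protein-coding transcripts alone (right). The phosphofructokinase bar changes most, with Pfkp at 67.4% on the left and 30.7% on the right, while hexokinase, aldolase and lactate dehydrogenase keep their shares to within 1 percentage point.

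The libraries were compared with each other gene by gene, with a two-sided exact binomial test of rounded expected counts and Benjamini-Hochberg adjustment over 18492 genes. It accounts for counting error alone and speaks of these libraries, not of a condition. No member passed an adjusted p of 0.05 together with a log2 ratio of 1 or beyond, against 2.95% of genes tested (2.41% higher and 0.535% lower in replicate 2). The median size of the log2 ratio was 0.11 for members and 0.12 for detected genes. By the adjusted p alone 19 members differed, against 24.3% of genes tested. This test calls small differences more readily in genes with many counts, and the share over all genes tested was not matched for counts. The same holds for the shares by adjusted p given below. Of the 19 members, 4 were higher in replicate 2 (Slc2a3, Gpi1, Pfkp and Slc16a7), against 12.9% of genes tested, and 15 were lower, against 11.4%. The lower ones were Hk1, Aldoa, Aldoc, Tpi1, Gapdh, Pgk1, Pgam1, Eno1, Eno2, Pkm, Ldhb, Pdha1, Pdk4, Bdh1 and Acat1. The test used scaled counts, and TPM did not always go the same way. Hk1 was lower by a log2 ratio of -0.08, though its TPM was higher in replicate 2. The summed TPM of the members was 3743 in replicate 2 and 3673 in replicate 1. The median log2 ratio over all members was -0.08, beside 0.01 over all genes tested.

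Pdk4 had the widest difference, with 123 counts in replicate 2 and 184 counts in replicate 1, a fold of 0.665 (95% interval 0.525 to 0.840, adjusted p = 0.00359 by the exact binomial test). Pfkp had the widest difference upward, with 20779 counts in replicate 2 and 16970 counts in replicate 1, a log2 ratio of 0.28 (adjusted p = 9.8e-79). Ldhb was lower by a log2 ratio of -0.25 and Aldoc by -0.22. For these genes a change in the number of cells of a type and a change in RNA per cell cannot be told apart in bulk tissue. Nor can a technical difference between the libraries be told apart from either.

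The higher level of Pfkp and Gpi1 in replicate 2 was not on their coding transcripts. Coding transcripts of Pfkp had 52.0 TPM in replicate 2 and 50.03 TPM in replicate 1, whereas its other transcripts summed to 241 and 179.5 TPM. Coding transcripts of Gpi1 had 57.4 and 65.3 TPM, and its other transcripts 138 and 96.2 TPM. So the coding part of Pfkp was close between the libraries and that of Gpi1 was lower in replicate 2, while the remaining transcripts of both were higher. In counts of coding transcripts alone the log2 ratio was -0.05 for Pfkp (adjusted p = 0.389, exact binomial test) and -0.31 for Gpi1 (adjusted p = 1.32e-14). On this scale 2 members, Slc2a3 and Slc16a7, stayed higher in replicate 2 by the adjusted p, against 9.77% of 14427 genes tested, and 16 were lower, against 16.9%. Coding counts kept the library sizes of all transcripts, and the median log2 ratio over all genes tested was -0.04 here.

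Markers of other tissues differed between the libraries. Marker genes of the choroid plexus summed to 4.66 TPM in replicate 2 and 217 TPM in replicate 1, and those of blood to 62.9 and 477 TPM; all 6 and all 5 genes were called lower in replicate 2. Ttr, the carrier protein that choroid plexus makes in bulk, had 1.94 TPM in replicate 2 and 206 TPM in replicate 1, and no gene of either list was at 0. The 7 other marker lists had no gene called, and their sums lay within close ranges, such as 88.8 and 84.4 TPM for endothelium. The part of choroid plexus or blood in the differences of Pdk4, Aldoc, Ldhb and the other members was not tested.

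**Figure D5:**
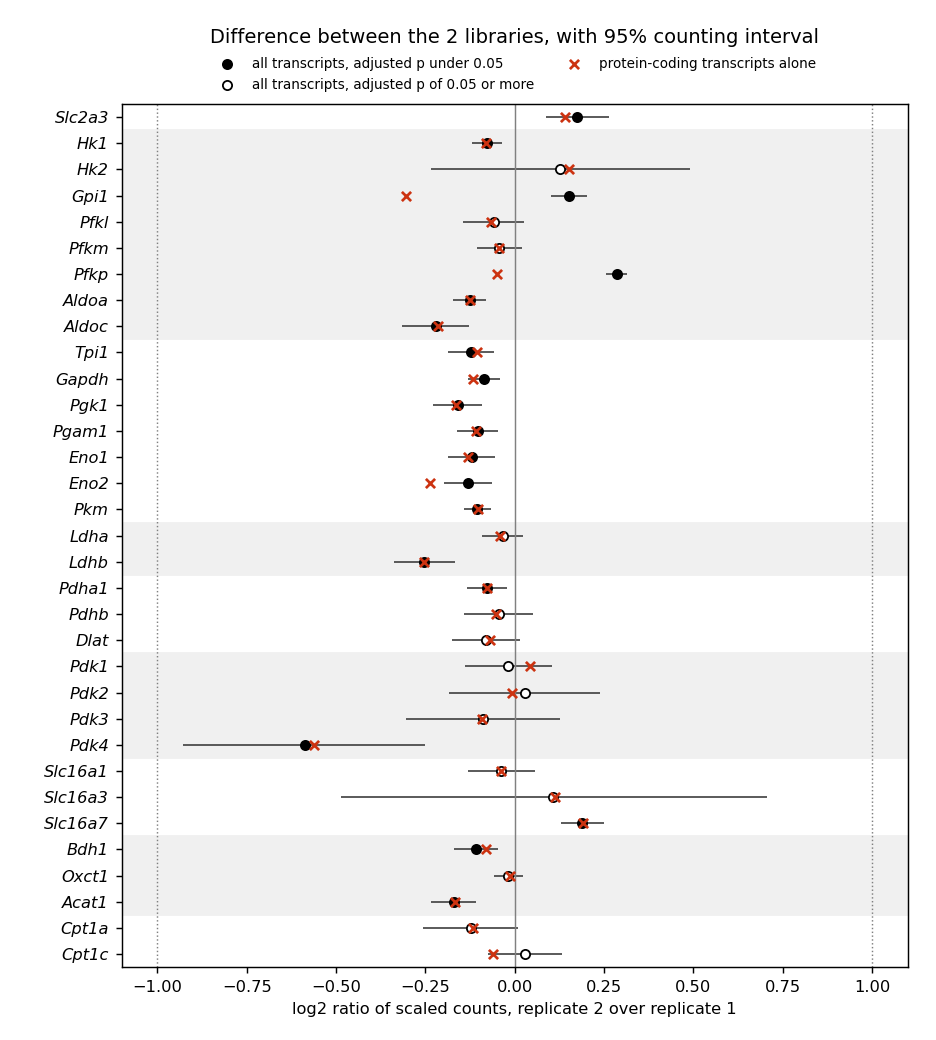
log2 ratio of scaled counts, replicate 2 over replicate 1, for each member (horizontal axis); circles with lines are all transcripts with the 95% counting interval, filled where the adjusted p was under 0.05, and crosses are protein-coding transcripts alone. Every circle lies inside the dotted lines at -1 and 1, and the crosses of Pfkp and Gpi1 lie left of 0 while their circles lie right of it.

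Beside the members, 66 other genes of the same pathways were listed, of which 51 were detected, with a median of 11.9 TPM, and none was called between the libraries by the adjusted p with a log2 ratio of 1. By the adjusted p alone 2 were higher in replicate 2, Adpgk and Pfkfb2, against 12.9% of genes tested, and 13 were lower, against 11.4%. Bsg, which carries MCT1 and MCT4 to the membrane, had 246 TPM in replicate 2 and 251 TPM in replicate 1. Slc16a6, another transporter of the family, had 6.57 and 9.67 TPM, and its log2 ratio of -0.77 (adjusted p = 5.02e-13, exact binomial test) was the widest among the listed genes with an adjusted p under 0.05. Slc16a8, which encodes MCT3, was at 0.070 and 0.090 TPM, and Slc16a11 at 13.3 and 9.75 TPM.

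Of the shuttles that carry NADH from glycolysis into mitochondria, 9 of 9 genes were detected, at a median of 50.1 TPM and over a wide range. Mdh2 had 184 TPM in replicate 2 and 193 TPM in replicate 1, Mdh1 158 and 174 TPM, Got2 77.4 and 83.0 TPM, and the carrier Slc25a13 1.24 and 1.13 TPM. Of this list 6 genes were lower in replicate 2 by the adjusted p, against 11.4% of genes tested, and none was higher, against 12.9%. In pyruvate entry and oxidation all 9 genes were detected. Citrate synthase (Cs) had 124 TPM in replicate 2 and 123 TPM in replicate 1, the mitochondrial pyruvate carrier genes Mpc1 79.7 and 79.2 TPM and Mpc2 54.3 and 52.5 TPM, and the phosphatase gene Pdp2 6.74 and 5.98 TPM.

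Other genes of ketone body and sterol precursor metabolism included Hmgcs1, the cytosolic synthase of the cholesterol pathway, at 404 TPM in replicate 2 and at 406 TPM in replicate 1. Acat2, the cytosolic thiolase, had 105 and 104 TPM. Oxct2a, the testis form of Oxct1, had 0.050 TPM in replicate 2 and was listed at 0 in replicate 1. Of 15 further genes listed beside the glycolytic enzymes 5 were detected, with Bpgm at 33.9 and 35.9 TPM and Pgam5, which encodes a mitochondrial protein phosphatase despite its name, at 33.0 and 35.8 TPM after Eno1b, and Gapdhs, the sperm form, was listed at 0 in both libraries. Among glycolysis regulators Hif1a, a transcription factor of the response to low oxygen, had 40.5 and 39.5 TPM, Pfkfb3 28.5 and 24.4 TPM, G6pdx, the entry to the pentose phosphate pathway, 24.02 and 24.65 TPM and Pfkfb1 3.56 and 2.39 TPM. Fatty acid oxidation genes were all detected at lower levels, with a median of 11.6 TPM. Over all transcripts Hadha led at 30.6 TPM in replicate 2 and at 30.8 TPM in replicate 1, followed by Acadvl at 22.4 and 19.8 TPM and Hadhb at a mean of 20.97 TPM, which was below Acadvl in replicate 2 and above it in replicate 1. On coding transcripts alone Hadha averaged 5.32 ± 0.679 TPM, under Acadvl at 13.1 ± 0.311 TPM and Hadhb at 12.5 ± 0.0849 TPM. Acadl had the highest mean of this list on that scale, at 13.5 ± 0.318 TPM. Cpt1b, the muscle form, was lowest over all transcripts at 1.97 and 2.12 TPM. Of the glucose transporters outside the members, Slc2a8 had 8.51 and 9.24 TPM, Slc2a4 1.61 and 1.31 TPM and Slc2a5 0.680 and 1.11 TPM.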

How the data were processed

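Both libraries are total RNA from left cerebral cortex. Assembly mm10 and GENCODE M21 are named in the deposited file descriptions; the aligner is not given in the sources used here. The first deposited tables hold expected counts, TPM, IsoPct (the percent of a gene's TPM on each transcript) and the posterior SD of each count (treated as a score), per the file headers; the authors' second table holds estimated counts and TPM. Reads shared between genes were divided by the authors' quantifiers, and no CAST/EiJ variants were modelled here. Spike-ins and entries without a gene stayed out.

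The gene counts came to 28844674 for replicate 2 and 29310533 for replicate 1. Intervals are exact 95% Clopper-Pearson and cover counting error only. Expected counts were rounded for the binomial test (scipy 1.17.1, summed count of at least 20), with library sizes scaled by the TMM factors of edgeR 4.0.16 (0.990 in replicate 1, 1.01 in replicate 2) in R 4.3.3; log2 ratios had 0.5 added to each count. The common biological coefficient of variation, 0.0937 over 17742 genes, is a description. The binomial test and the coefficient were tested on simulated data. Pairs used TPM + 1. Near copies came from blastn 2.17.0. Coding sums use GENCODE transcript types. Python 3.11.15, numpy 2.4.6, pandas 2.3.3 and matplotlib 3.10.9 were used. Members, lists, pairs and thresholds were chosen with earlier results of these data known. Named are all members, and of each other list the 3 highest genes and the lowest, except results that are not reported here. Alternatives covered the quantification, thresholds, scaling and left-out libraries. The use of coding transcripts alone, the division by the median ratio and an identity of 95% were added after seeing the data.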

Additional observations from a re-analysis of the deposited data

How the results depend on the processing

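No paired analysis was possible because the libraries form 1 group. The count of detected members was 33 under each alternative tried except a TPM of at least 5, which left 30. The median member level was 158 TPM in the second quantification, 166 TPM after rescaling over nuclear protein-coding genes and 61.3 TPM on coding transcripts alone, and 80.5 to 88.0 TPM with either library left out. The M2 share of Pkm was 50.4% in the second quantification and 54.5% of expected counts, and 48.0% to 48.8% with a library left out. Between 10 and 14 pairs were apart under every alternative. The number of members differing between libraries was 0 under every scaling, count minimum and quantification tried and 19 with the adjusted p alone. Members apart between quantifications numbered 27 at 1.5 times (against 55% of detected genes), 1 after division by the median ratio, and 5 with either library left out. The leading transcript was shared for 25 to 26 members with a library left out, and 10 members had near copies at 95% identity.

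Pair directions turned for Ldha over Ldhb (-0.0573 in the second quantification, -0.0847 there on coding transcripts), and on coding transcripts for Pfkp over Pfkm (-0.712, and -0.338 in the second), Pdk2 over Pdk3 (-0.0579, and -0.226 in the second) and Pdk1 over Pdk3 (-0.0470 in the second). Between-library directions, taken against 0, turned on coding transcripts for Gpi1 (-0.305), Pfkp (-0.0500), Pdk1 (0.0433), Pdk2 (-0.00733) and Cpt1c (-0.0611), with total counts for Pdk1 (0.0127) and Oxct1 (0.0121), and in the second quantification for Pdk2 (-0.0680). The median log2 ratio over all genes tested also moved, to -0.0354 on coding transcripts and 0.0357 with total counts, from 0.00530 in the main test. Against these medians Pdk2 lay above on coding transcripts, and Pdk1 and Oxct1 lay below with total counts. By the adjusted p, Hk1, Gapdh and Pdha1 no longer differed with total counts, while Pfkm (-0.0835), Ldha (-0.0965) and Oxct1 (-0.0699) became lower in replicate 2 in the second quantification. The causes were not tested. At 48 to 52 counts for Slc16a3 and 124 to 136 for Hk2, small differences between libraries were not detectable at this depth.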
